A study of Meleagris gallopavo with 12 samples.

Results

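A set of 97 genes, carried by 98 probes, was chosen for being higher in the premammillary nucleus of long-day photosensitive (LDPS) turkey hens. The other hens were long-day photorefractory (LDPR) and short-day photosensitive (SDPS). The choice used the 4 arrays that paired LDPS with another group. The members were drawn from 6141 probes (5551 genes) that name a gene symbol, of 20460 probes on a chicken oligonucleotide array. They were chosen by the authors' log2 values on 4 arrays. A member had to be higher in the LDPS pool on both arrays that paired it with an SDPS pool, and lower in the LDPR pool on both arrays that paired it with an LDPS pool. Of 5115 probes with values on all 4 arrays, 300 (5.87%) held these signs and 454 (8.88%) held the opposite signs on all 4. The 100 with the largest smaller mean difference were taken, and the haemoglobin gene HBG2 and the pituitary hormone gene FSHB, which ranked first and second, were left out. The set is therefore a description of those 4 arrays, and its differences between LDPS and the other groups are given below with no test.

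Transcript levels came from 12 pools of premammillary tissue, each from 6 adult hens, with 4 pools in each of 3 groups. LDPR hens had stayed on long days until they had passed through laying and moult and no longer responded to light. LDPS hens had received 16 h of light and 8 h of dark for 10 days. SDPS hens, also photosensitive, were kept at 6 h of light and 18 h of dark. The sources used here do not give the hours of light and dark for LDPR hens. Each of 6 arrays carried a pair of pools from different groups, 1 in each dye. LDPR and LDPS hens differ in time on long days, laying history and moult as well as in their response to light. LDPR and SDPS hens differ in day length as well as in their response to light. In neither comparison can these be told apart. In pooled tissue, fewer cells of a type and less RNA per cell cannot be told apart either.

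The premammillary nucleus lies at the back of the avian hypothalamus. In turkeys its neurons hold both dopamine and melatonin and are activated by light given in the photosensitive phase of the night. In photosensitive birds long days start gonadotropin release and laying, and after prolonged long days the birds become refractory and the reproductive axis regresses. The members are not a known pathway. They cover developmental transcription factors, ion channels, guidance and adhesion molecules, immune genes, structural proteins, kinases and metabolic enzymes, and are described in that order of roles.

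Members were fairly bright probes. Their median log2 intensity over the pools was 8.68, against 7.72 for probes with a symbol, and 41 of 98 fell in the brightest 25% of those probes. Members needed values on all 4 arrays of the rule, while the comparison took all 5972 probes with a symbol and any value. The part of this filter in the difference was not tested. In 12 of 12 pools, 94 members exceeded the level that 95% of empty spots stay under. The other 4, SLC7A2, PRKD1, TNFAIP6 and TXLNB, missed that level in LDPR pool 2, where 85.3% of probes with a symbol passed it, against 94.9% to 98.1% in the other pools. The members sat in 41 of the 48 printing blocks, with at most 7 in a block. Of the 97 genes, 63 were found by symbol in the turkey gene table (Turkey_5.1). They lay on 23 chromosomes with at most 8 on one, and RHOBTB2 and NKX2-6, 8 genes apart, were the only pair within 10 genes of each other. The neuron markers SYT1, STMN2, NEFL and NEFM were above empty spots in 12 of 12 pools. So were all measured markers of astrocytes and tanycytes, oligodendrocytes, red blood cells, endothelium and choroid plexus. Of the leukocyte markers 2 of 3 passed, and of the pituitary markers 2 of 4. Passing this level therefore does not single out a cell type.

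Across the set, the values that decided membership were small. The ranking value, the smaller of the mean LDPS minus SDPS difference and the mean LDPS minus LDPR difference, ran from 0.20 to 0.46 on the log2 scale, with a median of 0.24. KCNN2 stood at the top. The last members were NGB (0.196), ANXA6 (0.196) and PAN2 (0.196), and the first genes outside were DUSP1 (0.193), FGL2 (0.191) and ICA1 (0.191). The boundary therefore lay between nearly equal values.

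**Figure D1:**
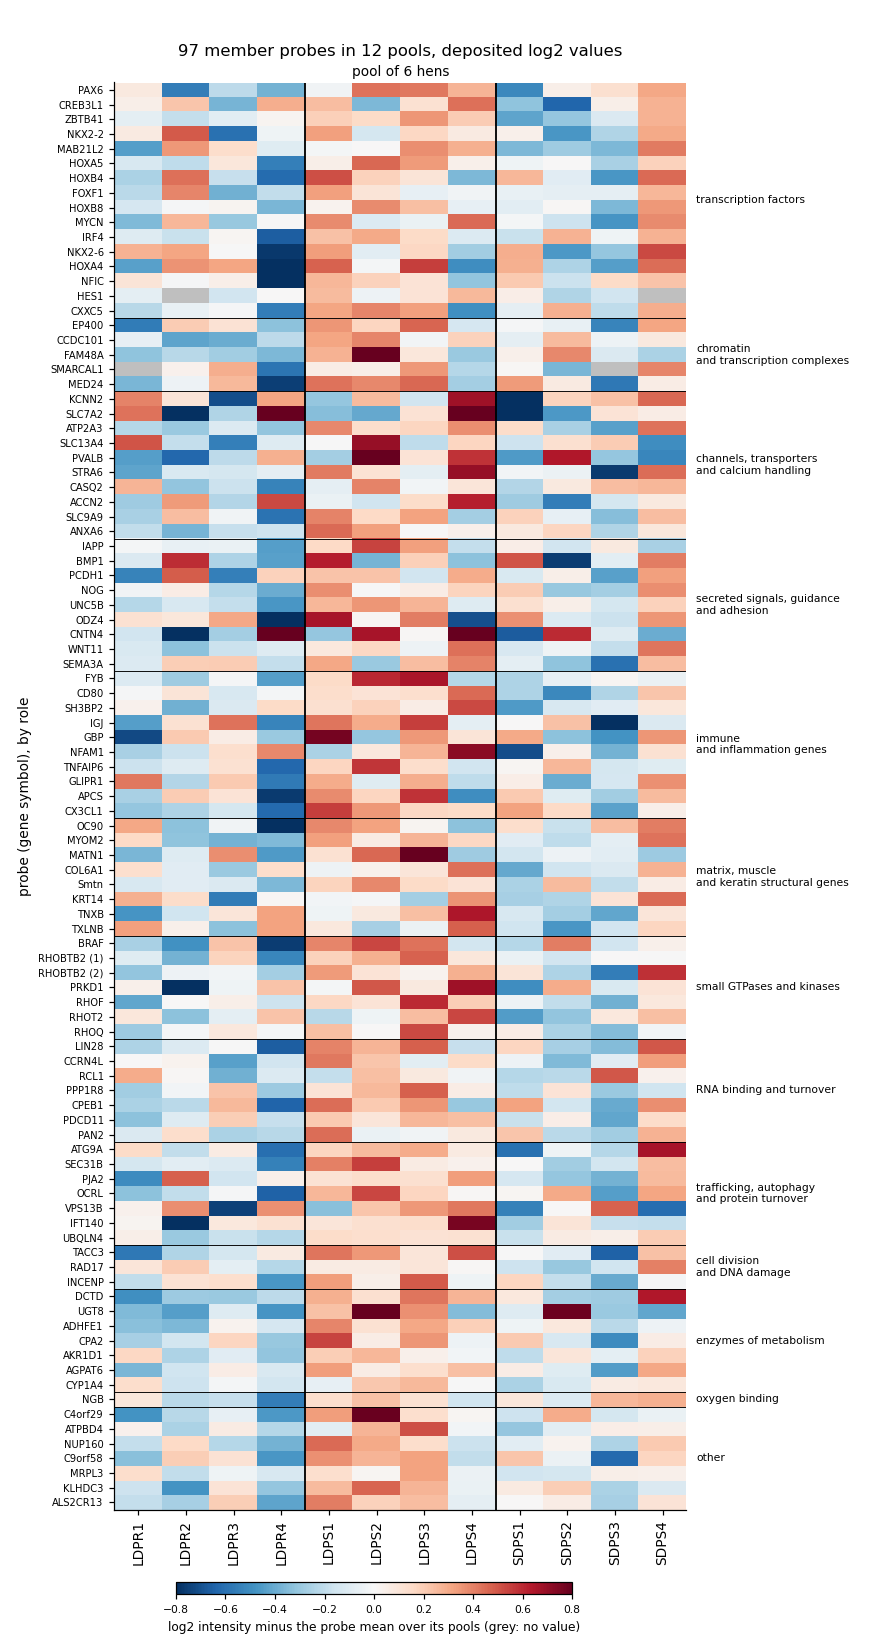
Heat map of 97 member probes (rows, by role) in the 12 pools (columns), as deposited log2 intensity minus the mean of the probe over its pools; red is higher and blue lower. LDPS columns are mostly red because the rule chose them so, and SDPS pool 4, which the rule did not use, is red for many members while SDPS pool 3 is not.

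Pool by pool, the set did not split cleanly by group. These levels, and the overlaps of single genes given below, compare pools across arrays and can carry differences of array. Only the within-array differences compare pools on a shared array. The median of the members lay above the median of probes with a symbol by 0.63, 0.83, 0.75 and 0.71 in LDPR pools 1 to 4, by 1.09, 0.95, 0.97 and 1.17 in LDPS pools 1 to 4 and by 0.82, 0.75, 0.56 and 1.03 in SDPS pools 1 to 4. SDPS pool 4 thus lay inside the LDPS range. The rule used neither SDPS pool 3 nor SDPS pool 4, and these were the lowest and the highest of the 4 SDPS pools. Their partners on the same arrays, LDPR pools 1 and 2, were likewise the lowest (0.63) and the highest (0.83) of the LDPR pools. Differences of pool and of array cannot be told apart in these levels.

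**Figure D2:**
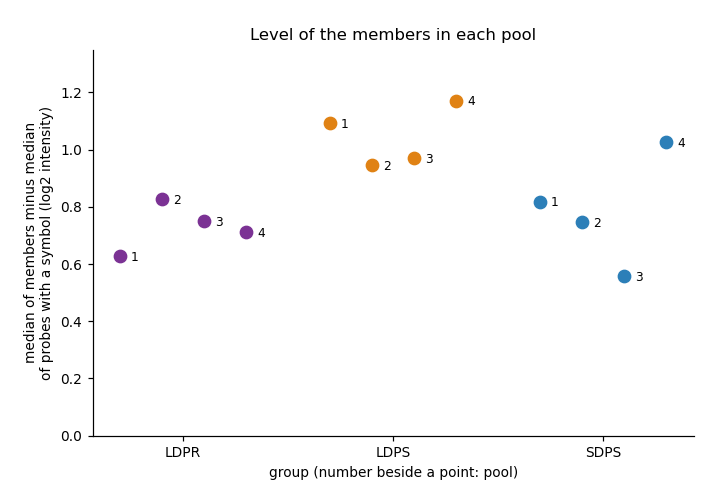
Median log2 intensity of the members minus that of all probes with a symbol (vertical axis) in each of the 4 pools per group (numbered points). The LDPS pools lie between 0.95 and 1.17, and SDPS pool 4 lies among them at 1.03.

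Of the 96 members with values in 12 pools, 5 reached their highest value in an LDPR pool, 75 in an LDPS pool and 16 in an SDPS pool. SDPS pool 4 alone held the highest value of 14 members. In that pool 77 of the 96 were above the lowest LDPS pool (82.6% of probes with a symbol were), against 33 in SDPS pool 3 (81.0%). The mean of the 4 pools was highest in LDPS for 91 of the 96, lowest in LDPR for 71 and lowest in SDPS for 25. The rule used every LDPS pool, so these counts of highest pools and means largely describe the choice. Their share over all probes was not computed.

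In 18 of the 96 members the 4 LDPS pools all lay above the 4 LDPR pools (0.954% of probes did), and in 3 they all lay above the 4 SDPS pools (0.464% of probes). The rule fixed most of these pools, so the counts describe the choice. In limma's fit of the loop, 0 members had an adjusted p under 0.05 for LDPS against SDPS (0% of probes) or LDPR against LDPS (0.0167%), and with the channels fitted separately 0 (0.0299%) and 34 (3.34%) did, which says nothing beyond the choice. The 3 members were RHOF, ADHFE1 and 1 of the 2 probes of RHOBTB2. RHOF and ADHFE1 were the 2 members whose 4 LDPS pools lay above all 8 other pools (0.0729% of probes).

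The comparison that shares no array with the choice is LDPR against SDPS, on the 2 arrays the rule did not use. By limma's moderated test over 17493 probes, 0 of the 97 members tested had an adjusted p under 0.05, and 0 of all probes did (0%). At an unadjusted p under 0.05 there were 0 members and 193 probes (1.1%). The lowest unadjusted p of a member was 0.0518, for DCTD. The log2 fold changes of the members ran from -0.66 to 0.35 with a median of -0.09, against -0.01 for all probes, and the median standard error (SE) was 0.23. Of the 97, 73 were below 0 and 24 above, while 2590 of all 5077 genes were below 0. The 2 arrays differed in this, as given next. Below, the unused value of a gene is this log2 fold change of LDPR against SDPS.

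These 2 arrays did not show the members alike. The dyes of LDPR and SDPS were swapped between them and the test has no dye term. Differences of pool and of dye therefore cannot be told apart on these 2 arrays alone. A fit chosen after seeing the data took a dye term from the arrays of the rule. In it the members' median was -0.24 without the array of LDPR pool 1 and 0.02 without that of LDPR pool 2. On the array with LDPR pool 2 and SDPS pool 4, the members' median log2 ratio was -0.26, against 0.00 for all probes, and 80 of 98 were lower in LDPR (49.4% of probes were). On the array with LDPR pool 1 and SDPS pool 3, the median was 0.06 and 36 of 97 were lower in LDPR (51.6% of probes). Both arrays together put 25 members lower in LDPR (18.6% of probes) and 7 higher (17.7%), and in the other 65 the arrays pointed opposite ways. Probes with a symbol were split into 4 equal brightness classes. From the dimmest to the brightest, these held 9, 19, 29 and 41 members. The members' median log2 ratio of LDPR pool 2 to SDPS pool 4 was -0.12, -0.34, -0.30 and -0.26 in these classes. That of LDPR pool 1 to SDPS pool 3 was 0.19, 0.08, 0.09 and 0.02. For all probes with a symbol, the class medians ran from -0.003 to 0.04 and from -0.008 to 0.0004 on these arrays.

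**Figure D3:**
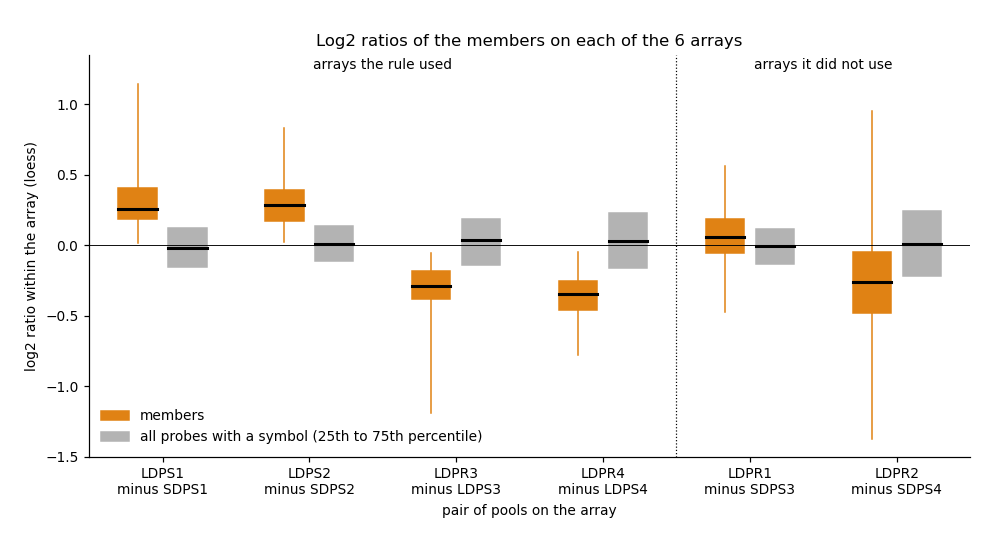
Within-array log2 ratios after loess on each of the 6 arrays: orange boxes span the members from the 25th to the 75th percentile, whiskers their lowest and highest values and black lines the medians, beside the same span for all probes with a symbol in grey. On the 4 arrays of the rule every member has the chosen sign, and on the other arrays the members' medians are 0.06 and -0.26.

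**Figure D4:**
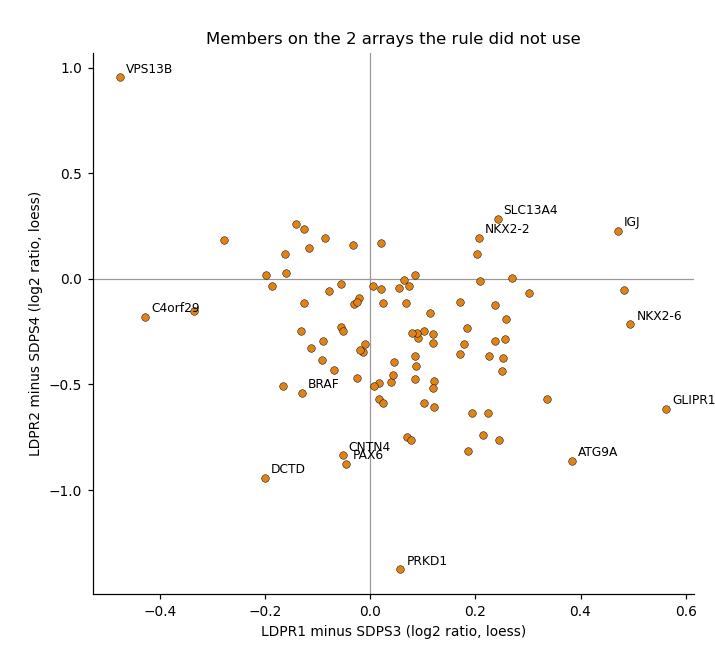
Log2 ratio of the members on the 2 arrays that the rule did not use, LDPR pool 1 minus SDPS pool 3 (horizontal axis) against LDPR pool 2 minus SDPS pool 4 (vertical axis). Most points lie below 0 on the vertical axis, and 25 members lie below 0 on both axes.

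Transcription factors were the largest role, with 16 probes. Their median differences were 0.25 for LDPS minus SDPS and -0.31 for LDPR minus LDPS, and every pair of differences below is given in this order. PAX6, a paired-box factor of eye and forebrain development, had log2 intensities of 7.92, 7.29, 7.63 and 7.46 in LDPR pools 1 to 4, 7.82, 8.28, 8.27 and 8.12 in LDPS pools and 7.33, 7.89, 7.97 and 8.15 in SDPS pools. Its LDPR pools 2 to 4 lay below every LDPS pool, while SDPS pools 2 to 4 lay among the LDPS pools. The mean differences on the arrays of the rule were 0.44 for LDPS minus SDPS and -0.64 for LDPR minus LDPS. On the 2 unused arrays PAX6 had a log2 fold change of -0.46 (SE 0.26), from array values of -0.05 and -0.88.

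NKX2-2, a homeobox factor of the ventral neural tube, went the other way on the unused arrays, at 0.20 (SE 0.22), with 0.21 and 0.19 on the arrays. Its log2 intensities were 6.45, 6.87, 5.78 and 6.34 in LDPR pools 1 to 4, 6.70, 6.24, 6.54 and 6.45 in LDPS pools and 6.42, 5.91, 6.14 and 6.68 in SDPS pools. All 3 groups overlapped. IRF4, an interferon regulatory factor of lymphocytes, had 11.14, 11.06, 11.26 and 10.58 in LDPR pools 1 to 4, 11.47, 11.54, 11.39 and 11.13 in LDPS pools and 11.06, 11.52, 11.20 and 11.52 in SDPS pools. SDPS pools 2 to 4 lay within the LDPS range here. HES1, a Notch-induced repressor, had mean differences of 0.20 and -0.26 and an unused value of 0.02. ZBTB41, a zinc finger gene, had values from 7.73 to 7.94 in LDPR pools and from 8.07 to 8.27 in LDPS pools. SDPS pool 4, at 8.20, again lay within the LDPS range.

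The Hox genes, which set position along the body axis in embryos, gave 4 members, HOXA4, HOXA5, HOXB4 and HOXB8. HOXA5 had log2 intensities of 6.996, 6.92, 7.21 and 6.57 in LDPR pools 1 to 4, 7.17, 7.58, 7.46 and 7.16 in LDPS pools and 7.09, 7.13, 6.86 and 7.31 in SDPS pools. Its difference was 0.27 for LDPS minus SDPS and -0.42 for LDPR minus LDPS. The array carried 12 Hox probes (10 genes) with values on the 4 arrays of the rule, a group picked after its values were seen. Of the 8 that were not members, 5 were higher in LDPS than in SDPS in the mean (47.7% of probes with a symbol). All 8 were lower in LDPR than in LDPS (41.0%). Both counts come from the same arrays as the choice. The 8 include another probe of HOXA5, and probes of HOXD8 with LDPS minus SDPS means of -0.24 and 0.36. On the unused arrays HOXA4 (-0.07), HOXA5 (-0.16), HOXB4 (0.10) and HOXB8 (-0.07) were within 1 SE of 0.

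Chromatin and transcription complexes gave 5 members, among them EP400, a chromatin remodelling ATPase, and MED24, a Mediator subunit. EP400 had mean differences of 0.30 and -0.27. CCDC101 had log2 intensities of 11.75, 11.40, 11.43 and 11.61 in LDPR pools 1 to 4, 12.14, 12.21, 11.80 and 12.002 in LDPS pools and 11.75, 12.07, 11.78 and 11.90 in SDPS pools. The LDPS pools lay above the LDPR pools and overlapped the SDPS pools. SMARCAL1, a DNA annealing helicase, had a value on only 1 unused array and was not tested there.

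Ion channels, transporters and calcium-handling genes gave 10 members. KCNN2 encodes the SK2 potassium channel, which opens on calcium and sets the pause after a spike. It had log2 intensities of 9.06, 8.77, 7.96 and 8.98 in LDPR pools 1 to 4, 8.36, 8.92, 8.51 and 9.34 in LDPS pools and 7.22, 8.84, 8.90 and 9.12 in SDPS pools. Its LDPR and LDPS pools overlapped over most of their range, and SDPS pool 1 lay far below all others. The LDPS minus SDPS differences were 1.14 and 0.08 on the arrays of the rule, so the mean of 0.61 came almost wholly from 1 array. On the unused arrays KCNN2 stood at -0.09 (SE 0.24).

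SLC13A4, a sodium-coupled sulphate transporter, had log2 intensities of 6.99, 6.30, 5.95 and 6.39 in LDPR pools 1 to 4, 6.49, 7.19, 6.29 and 6.67 in LDPS pools and 6.33, 6.62, 6.70 and 5.9998 in SDPS pools. The groups overlapped, and its unused value was 0.26 (SE 0.22). ATP2A3, a calcium pump of the endoplasmic reticulum, had 9.04, 8.97, 9.16 and 8.95 in LDPR pools 1 to 4, 9.65, 9.41, 9.44 and 9.64 in LDPS pools and 9.41, 9.01, 8.83 and 9.70 in SDPS pools. The LDPR pools were all below the LDPS pools, and SDPS pools 1 and 4 were not. PVALB, the calcium buffer parvalbumin of fast-spiking neurons, ran from 8.85 to 10.36 in LDPS pools, so its spread within a group exceeded its mean difference of 0.39. ANXA6, a calcium-dependent membrane-binding annexin, ranged from 9.78 to 9.99 in LDPR pools, 10.15 to 10.61 in LDPS pools and 9.92 to 10.33 in SDPS pools. STRA6, the receptor for retinol-binding protein, had mean differences of 0.30 and -0.42.

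Secreted signals, guidance and adhesion genes gave 9 members. NOG encodes noggin, an extracellular antagonist of bone morphogenetic proteins, and had log2 intensities of 10.65, 10.74, 10.45 and 10.28 in LDPR pools 1 to 4, 11.05, 10.68, 10.74 and 10.86 in LDPS pools and 10.88, 10.38, 10.41 and 11.05 in SDPS pools. SDPS pool 1 lay within the LDPS range and SDPS pool 4 level with its top. WNT11, a Wnt ligand, had 9.35, 9.14, 9.30 and 9.37 in LDPR pools 1 to 4, 9.56, 9.64, 9.43 and 9.91 in LDPS pools and 9.34, 9.44, 9.28 and 9.90 in SDPS pools. BMP1, a procollagen proteinase despite its name, had mean differences of 0.26 and -0.27 and overlapped in all groups. UNC5B, a netrin receptor, had values from 10.30 to 10.64 in LDPR pools and from 10.66 to 11.12 in LDPS pools, with no overlap. Its SDPS pools ran from 10.63 to 10.95 and overlapped both. SEMA3A, a repulsive guidance cue, and IAPP, the peptide amylin, had LDPS minus SDPS differences of 0.21 and 0.40.

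CNTN4, a contactin on axons, had log2 intensities of 7.75, 6.69, 7.63 and 8.71 in LDPR pools 1 to 4, 7.59, 8.56, 7.91 and 8.93 in LDPS pools and 7.24, 8.50, 7.80 and 7.51 in SDPS pools. LDPR pool 4 and LDPS pool 4 shared an array, as did LDPS pool 2 and SDPS pool 2, and all 4 were high. On the unused arrays this probe of CNTN4 had -0.44 (SE 0.26), from -0.05 and -0.84. Other probes of CNTN4 had 0.28 and -0.79, -0.18 and 0.06, and 0.62 and 0.06 on the same arrays.

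Immune and inflammation genes gave 10 members. FYB, an adaptor of the T cell receptor, had log2 intensities of 7.67, 7.502, 7.77 and 7.34 in LDPR pools 1 to 4, 7.93, 8.39, 8.43 and 7.56 in LDPS pools and 7.54, 7.72, 7.80 and 7.74 in SDPS pools. LDPS pools 1 to 3 lay above every other pool and LDPS pool 4 did not. CD80, a costimulatory ligand of antigen-presenting cells, had 9.53, 9.64, 9.41 and 9.52 in LDPR pools 1 to 4, 9.68, 9.64, 9.67 and 9.99 in LDPS pools and 9.29, 9.02, 9.29 and 9.76 in SDPS pools. The lowest LDPS pool lay just above the highest LDPR pool, and SDPS pool 4 lay above 3 of the LDPS pools. IGJ, the joining chain of polymeric immunoglobulins, had the highest unused value of the set at 0.35 (SE 0.23), with 0.47 and 0.23 on the arrays. Its levels ran from 8.24 to 9.20 in LDPR pools and 8.69 to 9.32 in LDPS pools, and SDPS pool 3 was the lowest of the 12 at 7.86. CX3CL1, the neuronal chemokine fractalkine, ranged from 8.26 to 8.74 in LDPR pools and from 9.03 to 9.43 in LDPS pools. Its SDPS pools ran from 8.46 to 9.20 and overlapped both. The leukocyte markers PTPRC, C1QA and CD74 had a summed log2 level of 8.65 to 9.07 in LDPR, 8.76 to 9.35 in LDPS and 8.86 to 9.18 in SDPS pools, and their part in these values was not tested.

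Matrix, muscle and keratin genes gave 8 members. MYOM2, a protein of the sarcomere's M band, had log2 intensities of 9.69, 9.20, 9.15 and 9.17 in LDPR pools 1 to 4, 9.85, 9.59, 9.80 and 9.69 in LDPS pools and 9.44, 9.32, 9.45 and 9.96 in SDPS pools. LDPR pools 2 to 4 lay lowest, and SDPS pool 4 lay highest of all. OC90, a matrix protein of inner ear otoconia, had 7.90, 7.27, 7.57 and 6.63 in LDPR pools 1 to 4, 7.98, 7.92, 7.62 and 7.27 in LDPS pools and 7.74, 7.42, 7.84 and 8.01 in SDPS pools. Its groups overlapped, with an LDPS mean of 7.69 beside an SDPS mean of 7.75. Within the arrays that paired these groups, OC90 was higher in LDPS by 0.24 and 0.50, as the rule required. COL6A1, a collagen VI chain, had 9.80, 9.58, 9.38 and 9.81 in LDPR pools 1 to 4, 9.63, 9.70, 9.77 and 10.11 in LDPS pools and 9.26, 9.51, 9.56 and 9.95 in SDPS pools. Its LDPR and LDPS pools overlapped, and its differences were 0.28 and -0.34. MATN1, a cartilage matrix protein, had differences of 0.38 and -0.31.

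**Figure D5:**
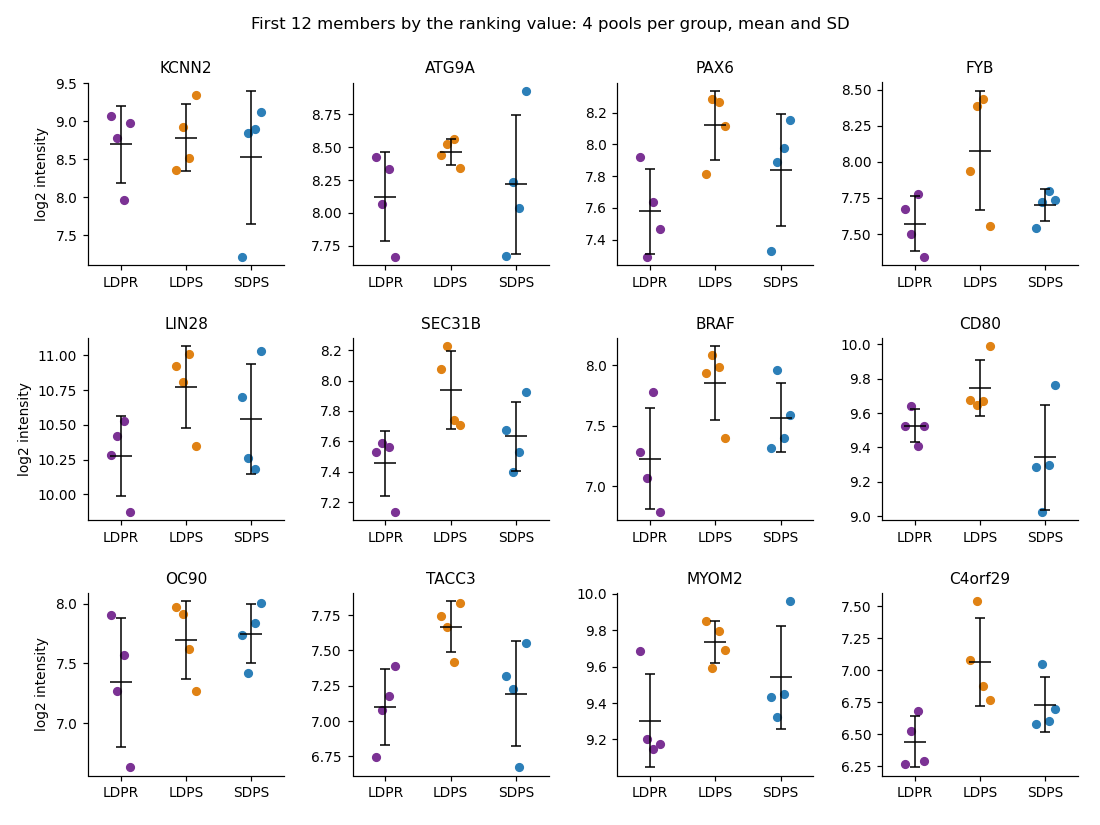
Deposited log2 intensity of the first 12 members by the ranking value in the 4 pools of each group (points), with mean and SD (black). LDPS means are highest in 11 of the 12 panels, OC90 being the exception, and single pools such as KCNN2 in SDPS pool 1 lie far from their group.

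Small GTPases and kinases gave 7 probes. BRAF, a kinase at the head of the MAP kinase cascade, had log2 intensities of 7.29, 7.07, 7.78 and 6.79 in LDPR pools 1 to 4, 7.94, 8.08, 7.98 and 7.40 in LDPS pools and 7.32, 7.96, 7.40 and 7.59 in SDPS pools. LDPS pools 1 to 3 lay above most other pools, and LDPS pool 4 lay among them. The unused value of BRAF was -0.33 (SE 0.23). Among the small GTPases, RHOF had 8.51, 8.92, 8.97 and 8.75 in LDPR pools 1 to 4, 9.09, 9.03, 9.52 and 9.11 in LDPS pools and 8.88, 8.72, 8.53 and 9.005 in SDPS pools, with the LDPS pools above all 8 others. RHOBTB2 was the only gene with 2 member probes. Its first probe had 9.33, 9.05, 9.61 and 8.90 in LDPR pools 1 to 4, 9.61, 9.71, 9.89 and 9.52 in LDPS pools and 9.37, 9.27, 9.43 and 9.42 in SDPS pools, and its second had 7.90, 8.18, 8.20 and 7.95 in LDPR pools 1 to 4, 8.56, 8.33, 8.25 and 8.50 in LDPS pools and 8.32, 7.97, 7.66 and 8.80 in SDPS pools. The LDPS pools lay above the SDPS pools for the first probe only. PRKD1, protein kinase D1, had the lowest unused value of the set at -0.66, from 0.06 and -1.38 on the arrays, and was not above empty spots in LDPR pool 2.

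RNA-binding and turnover genes gave 7 members. LIN28, which blocks maturation of the let-7 microRNAs, had log2 intensities of 10.28, 10.42, 10.53 and 9.87 in LDPR pools 1 to 4, 10.93, 10.80, 11.01 and 10.35 in LDPS pools and 10.70, 10.26, 10.18 and 11.03 in SDPS pools. SDPS pool 4 was the highest of the 12 pools, and LDPS pool 4 was lower than SDPS pool 1. CCRN4L encodes nocturnin, whose transcript follows a daily rhythm in many vertebrate tissues, and had 11.27, 11.29, 10.83 and 11.11 in LDPR pools 1 to 4, 11.69, 11.49, 11.18 and 11.42 in LDPS pools and 11.22, 10.91, 11.17 and 11.60 in SDPS pools. Its LDPS minus SDPS difference of 0.52 was among the larger ones, and its unused value was -0.09 (SE 0.23). PAN2, a deadenylase subunit and the last member taken, had LDPS values from 7.07 to 7.57, within which SDPS pools 1 and 4 lay.

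Trafficking, autophagy and protein turnover gave 7 members. ATG9A, a membrane protein of the growing autophagosome, had log2 intensities of 8.42, 8.07, 8.33 and 7.67 in LDPR pools 1 to 4, 8.44, 8.52, 8.56 and 8.34 in LDPS pools and 7.67, 8.23, 8.04 and 8.93 in SDPS pools. The LDPS pools were close together, and the SDPS pools ran past them at both ends. On the unused arrays ATG9A pointed opposite ways, at 0.38 and -0.86. SEC31B, a coat protein of vesicles leaving the endoplasmic reticulum, had 7.53, 7.59, 7.56 and 7.14 in LDPR pools 1 to 4, 8.08, 8.23, 7.74 and 7.71 in LDPS pools and 7.68, 7.40, 7.53 and 7.92 in SDPS pools. Its LDPS pools lay above the LDPR pools. VPS13B, a lipid transfer protein at the Golgi, pointed opposite ways on the unused arrays, at -0.48 and 0.95.

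Cell division and DNA damage gave 3 members. TACC3, a spindle protein, had log2 intensities of 6.75, 7.08, 7.18 and 7.39 in LDPR pools 1 to 4, 7.75, 7.67, 7.42 and 7.84 in LDPS pools and 7.32, 7.23, 6.67 and 7.55 in SDPS pools. Its LDPS pools lay above the LDPR pools, and SDPS pool 4 overlapped. INCENP, of the chromosomal passenger complex, had differences of 0.20 and -0.40 and an unused value of 0.16 (SE 0.22). Of 25 genes measured in a cell cycle and replication list, 7 were higher in LDPS than in SDPS and 12 lower in LDPR than in LDPS. Over all 5198 genes these counts were 2237 and 2315.

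Metabolic enzymes gave 7 members. Their unused value was below 0 in 7 of 7, as in 73 of the 97 members tested and 2590 of 5077 genes. Only 3 of the 7 were below 0 on both arrays. DCTD, a deaminase that supplies the precursor of thymidine nucleotides, had log2 intensities of 8.37, 8.56, 8.56 and 8.64 in LDPR pools 1 to 4, 9.14, 8.98, 9.28 and 9.13 in LDPS pools and 8.94, 8.58, 8.57 and 9.50 in SDPS pools. The LDPR pools lay below the LDPS pools with a gap, and SDPS pool 4 was the highest of the 12. DCTD had -0.57 (SE 0.25, limma adjusted p = 0.99999) on the unused arrays, from -0.20 and -0.94. ADHFE1, a mitochondrial hydroxyacid-oxoacid transhydrogenase, had 9.20, 9.18, 9.57 and 9.40 in LDPR pools 1 to 4, 9.93, 9.66, 9.85 and 9.73 in LDPS pools and 9.50, 9.62, 9.32 and 9.50 in SDPS pools. UGT8, which makes the myelin lipid galactosylceramide, had 10.10, 10.01, 10.34 and 9.98 in LDPR pools 1 to 4, 10.68, 11.60, 10.82 and 10.10 in LDPS pools and 10.35, 11.23, 10.15 and 10.04 in SDPS pools. Both LDPS pool 2 and SDPS pool 2, which shared an array, were high for UGT8, and LDPS pool 4 lay among the LDPR pools.

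NGB, the oxygen-binding protein neuroglobin of neurons, had log2 intensities of 9.57, 9.26, 9.29 and 8.93 in LDPR pools 1 to 4, 9.61, 9.72, 9.60 and 9.32 in LDPS pools and 9.57, 9.37, 9.74 and 9.76 in SDPS pools. Its LDPS mean of 9.56 was not above its SDPS mean of 9.61. Within the arrays that paired these groups, NGB was higher in LDPS by 0.04 and 0.35, as the rule required. Its unused value was -0.34 (SE 0.23).

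Among members without a grouped role, C4orf29 had log2 intensities of 6.27, 6.53, 6.69 and 6.29 in LDPR pools 1 to 4, 7.08, 7.54, 6.88 and 6.77 in LDPS pools and 6.58, 7.05, 6.61 and 6.70 in SDPS pools. Its LDPS pools lay above the LDPR pools and overlapped the SDPS pools. C9orf58 had differences of 0.23 and -0.24 and an unused value of 0.14 (SE 0.23).

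Other probes of the same genes stood under the same rule and were not taken. Of the 97 genes, 17 had another probe (23 probes), and 16 of these probes (13 genes) had ratios on the 4 arrays of the rule. Among the 16, 9 were higher in LDPS than in SDPS in the mean, 13 were lower in LDPR than in LDPS and 8 were both. For probes with a symbol these shares were 47.7%, 41.0% and 22.1%, by the authors' values rather than the loess ratios used here. Only a second probe of SMARCAL1 held all 4 signs. The median differences of the 16 were 0.04 for LDPS minus SDPS and -0.12 for LDPR minus LDPS. These probes share the pools and arrays of the members. One with the signs and larger differences would itself have been a member, as happened for RHOBTB2. Their weaker values are therefore shaped by the choice and test neither the probes nor the pools. For ATG9A the second probe had means of 0.06 and -0.45, and for LIN28 -0.09 and 0.03. The second probe of HES1 had 0.02 and -0.21.

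Pathway lists placed the members among related genes. In the list of homeobox, paired-box and LIM factors, which holds PAX6 and NKX2-2, 16 of 31 genes were higher in LDPS than in SDPS and 15 lower in LDPR than in LDPS. The Wnt, hedgehog, Notch and BMP list, which holds BMP1, NOG, WNT11 and HES1, had 38 of 66 and 39 of 66, with medians of 0.02 and -0.06. Channels, with KCNN2, had 12 of 39 and 21 of 39. Muscle contractile genes, with MYOM2, had 11 of 25 for both, and collagens and matrix genes, with COL6A1, had 24 of 38 and 21 of 38. Immune genes, with IRF4, had 20 of 35 and 16 of 35. Over all 5198 genes, 2237 were higher in LDPS than in SDPS and 2315 lower in LDPR than in LDPS. The medians were -0.02 and 0.02. These lists include the members named and share the arrays of the choice, so their counts are partly set by the rule. By limma, 0 genes of any list were called in LDPS against SDPS (0% of probes) or LDPR against LDPS (0.0167%). The same held for LDPR against SDPS on the unused arrays (0%).

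Among red blood cell markers, HBG2 had ranked first under the rule. The 2 measured in every pool were HBG2 and HBZ. Their summed log2 level was 10.35 to 10.99 in LDPR, 11.25 to 12.06 in LDPS and 10.61 to 11.13 in SDPS pools. The LDPS pools thus lay above all 8 others. That separation came from HBG2. HBZ alone had 7.49 to 8.24 in LDPR, 7.75 to 8.39 in LDPS and 7.39 to 7.99 in SDPS pools, which overlapped. HBZ also held the signs of the rule, at rank 120, with mean differences of 0.22 and -0.18. In a red blood cell list, 4 of 4 genes were higher in LDPS than in SDPS (2237 of 5198 genes in all), with a median of 0.44. The same 4 were lower in LDPR than in LDPS (2315 of 5198), with a median of -0.49. These values share the arrays of the choice. Pituitary markers (POMC, PRL, GH1 and FSHB) had 10.87 to 11.73 in LDPR, 11.07 to 11.47 in LDPS and 11.04 to 11.79 in SDPS pools, which overlapped. The brighter GH1 and POMC make up most of that sum. FSHB alone had 5.28 to 5.75 in LDPR, 6.09 to 6.69 in LDPS and 5.75 to 6.14 in SDPS pools. It had ranked second under the rule on these arrays, and was above empty spots in 11 pools. Choroid plexus markers (TTR and FOLR1) had 8.97 to 10.22, 8.74 to 9.16 and 9.05 to 9.92 in the same order of groups. The part of blood or neighbouring tissue in the members' values was not tested.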

How the data were processed

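Transcript levels of 12 pools were read on 6 two-colour arrays, each scanned once for the pair of pools it carried. Per the file headers, the authors used BlueFuse for Microarrays 3.6 (build 7145) to estimate spot intensity, and deposited 1 amplitude per channel with a confidence score per spot. Their deposited value table holds log2 intensities per pool, and the sources used here do not give its normalisation. The rule and the per-pool levels used this table. Members and gene lists were chosen with earlier results of these data known.

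For tests, spots with a confidence score under 0.1 were set missing and within-array log2 ratios of the amplitudes were normalised by loess (span 0.3, 4 iterations; empty and control spots at weight 0). The LDPR against SDPS test used the 2 arrays outside the rule in limma 3.58.1 (R 4.3.3), with 1 coefficient, 1 residual and 8.03 prior degrees of freedom and a prior SD of 0.33. Tests were two-sided, with Benjamini-Hochberg adjustment over 17493 probes and a threshold of 0.05. A loop fit of 6 arrays (3 groups and a dye term) served for background counts. A p-value here covers the spread of pools and arrays together, not that of single hens. In the LDPR against SDPS test the spread behind a p-value or SE comes mostly from the prior shared by all probes. It therefore says little about how far the 2 arrays agreed for a gene. The number of arrays limits the precision, and the depth of an array is its signal over background. The script was checked on simulated data, where it called some unchanged probes as well as changed ones. The planted changes were much larger than any member's log2 fold change on the unused arrays. The check therefore does not show whether changes of the members' size would be called.

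Genes named are the first 12 by ranking value, the 5 highest and 5 lowest on the unused arrays with both arrays in that direction, members of a list, the genes at the boundary and examples of a role. Gene symbols come from the array's annotation, which is old, and turkey RNA met chicken probes. Where a gene had several probes, the brightest stood for it in lists. Values of 1 member are not reported here.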

Additional observations from a re-analysis of the deposited data

Results flagged for a closer look

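Dixon's criterion for 4 samples was applied to the per-pool log2 intensities of the named members and to the members' median per pool, 85 groups of 4 pools in all, of which chance singles out about 1 in 20. It singled out 6 values. KCNN2 was at 7.22 in SDPS pool 1, against 8.84 to 9.12 in the other SDPS pools. SEC31B was at 7.14 in LDPR pool 4, against 7.53 to 7.59 in the others. CD80 was at 9.99 in LDPS pool 4, against 9.64 to 9.68. MYOM2 was at 9.69 in LDPR pool 1, against 9.15 to 9.20. C9orf58 was at 7.93 in LDPS pool 4, against 8.40 to 8.49. ANXA6 was at 9.78 in LDPR pool 2, against 9.96 to 9.99.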

How the results depend on the processing

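All 98 members kept the signs of the rule when loess ratios of the scanner amplitudes replaced the authors' values, and 79 stayed among the first 100. Over the other alternatives run, 92 (print-tip loess) to 98 kept the signs and 65 (print-tip loess) to 79 stayed. The count of members called for LDPR against SDPS was 0 under every alternative run. The loop fit, the separate channels and the replicate block estimate this contrast from all 6 arrays, including the 4 of the rule. They are therefore not results of the unused arrays alone. The count of all probes called was 1 with only probes above empty spots, 50 with separate channels, 13 with the replicate block. With 1 array left out it was 0, the remaining array being assumed to vary like the 4 others, and the members' median was -0.26 to 0.06. The members' median difference for LDPS minus SDPS, 0.27 in the loop fit, was 0.29 with each array centred on its median, 0.31 with scaling between arrays, 0.23 with an offset of 50 and 0.21 to 0.29 with 1 array left out. That for LDPR minus LDPS, -0.34, was -0.38 with median centring. On the unused arrays NKX2-2 turned to -0.036 with print-tip loess. With the replicate block, fitted to all 6 arrays, SLC13A4 turned to -0.0078, NKX2-2 to -0.075, INCENP to -0.12 and C9orf58 to -0.037. With a dye term estimated from the other arrays as well, chosen after seeing the data, leaving out the array of LDPR pool 1 gave 15 probes called, NKX2-2 at -0.031 and C9orf58 at -0.023. The causes were not tested. Same-numbered pools correlated from 0.27 to 0.74 on a shared array and from -0.46 to 0.28 on different arrays; LDPR and SDPS pools correlated from -0.46 to -0.15, so their numbers were not taken as pairs, and 12 of 24 correlations were best for the pool's own number. With that block 1 member was called for LDPS against SDPS (0.155% of probes) and 45 for LDPR against LDPS (6.22%). These contrasts chose the members. The rule's order was read as taking 100 and then leaving genes out, and leaving them out first, chosen after seeing the data, adds DUSP1 and FGL2. Signal over background limits LDPR pool 2 most.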
